A study of Mus musculus with 6 samples.

Results

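The expression of 9 genes that define the macrophage was followed in oxLDL-treated mouse macrophages with and without ALDH2. They are the growth factor receptors Csf1r and Csf2ra, the surface proteins Adgre1 (F4/80) and Cd14, the secreted enzyme Lyz2, and the lineage transcription factors Spi1 (PU.1), Maf, Cebpa and Cebpb. They were chosen by name, with earlier results of these data known. All 9 were found by NCBI gene number among the 16871 genes listed in at least 1 library and among the 11809 genes tested.

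RNA was sequenced from bone marrow-derived macrophages of C57BL/6 mice aged 8 weeks, kept in culture for 7 days and then treated with oxidised low-density lipoprotein (oxLDL), a lipoprotein form that macrophages ingest. The control group (LKO, 3 libraries) lacked the LDL receptor. The other group (DKO, 3 libraries) lacked the LDL receptor and also ALDH2, a mitochondrial aldehyde dehydrogenase. Both groups were therefore LDL receptor knockouts, both had received oxLDL, and a wild type or an untreated culture was not analysed here. Nothing in the labels ties the libraries to separate mice, so every p-value below measures the spread between these libraries, which may be technical.

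Macrophages depend on CSF1, which signals through the tyrosine kinase receptor CSF1R to keep marrow precursors alive and to drive them to mature. PU.1 is the master factor of the myeloid lineage and binds the control regions of many macrophage genes, the C/EBP factors act beside it in granulocyte and monocyte precursors, and c-Maf is linked to the end of division in the mature cell. GM-CSF, bound by the receptor chain that Csf2ra encodes together with a shared β chain, gives a different macrophage state from the one that CSF1 gives.

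Library totals lay between 10760625 and 10987584 expected counts, the authors' estimates of reads per gene. Levels are given in FPKM, the deposited value scaled to transcript length and library size. Aldh2 had 249, 239 and 236 FPKM in the LKO libraries and 7.00, 7.06 and 7.34 in the DKO libraries. Library LKO 1 stood somewhat apart within its group, with a chi-square per degree of freedom of 3.14 and 3.71 against the other LKO libraries, which differed from each other by 1.68. It was the lowest LKO library for 7 of the 9 genes and for 37.6% of all tested genes.

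Promoter sequence was at hand for 4 of the 9 genes, and the 250 bases before each transcription start are shown because Cebpa, Cebpb and Lyz2 passed the test and Csf2ra carries PU.1 core letters. They come from RefSeq on build GRCm38.p6 and read 5′ to 3′ on the gene's own strand. Capitals mark matches on either strand to GAGGAA (a PU.1 core), TTGCNNAA (a C/EBP site), TGCTGAC (a Maf site), TATAAA (the promoter box named for these letters) and TGACG (a cyclic AMP response element core). The last 2 motifs were added after the sequences had been read. The windows are chr7:35119043-35119292 on the plus strand for Cebpa, chr2:167688665-167688914 on the plus strand for Cebpb, chr19:61228419-61228668 on the minus strand for Csf2ra and chr10:117282273-117282522 on the minus strand for Lyz2.
Cebpa: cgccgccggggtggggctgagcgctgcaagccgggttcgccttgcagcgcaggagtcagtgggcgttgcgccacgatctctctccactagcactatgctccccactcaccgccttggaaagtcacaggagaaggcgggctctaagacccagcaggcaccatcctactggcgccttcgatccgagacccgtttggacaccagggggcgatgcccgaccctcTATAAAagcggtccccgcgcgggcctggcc
Cebpb: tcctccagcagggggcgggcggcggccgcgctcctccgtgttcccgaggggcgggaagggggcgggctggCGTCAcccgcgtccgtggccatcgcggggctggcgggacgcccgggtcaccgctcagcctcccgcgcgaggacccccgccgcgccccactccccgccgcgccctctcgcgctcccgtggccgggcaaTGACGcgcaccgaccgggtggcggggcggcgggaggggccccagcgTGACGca
Csf2ra: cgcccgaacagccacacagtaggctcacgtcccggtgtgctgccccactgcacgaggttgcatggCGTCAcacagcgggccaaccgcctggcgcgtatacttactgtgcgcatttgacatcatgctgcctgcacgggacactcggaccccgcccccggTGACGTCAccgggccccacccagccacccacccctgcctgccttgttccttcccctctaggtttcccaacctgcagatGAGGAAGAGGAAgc
Lyz2: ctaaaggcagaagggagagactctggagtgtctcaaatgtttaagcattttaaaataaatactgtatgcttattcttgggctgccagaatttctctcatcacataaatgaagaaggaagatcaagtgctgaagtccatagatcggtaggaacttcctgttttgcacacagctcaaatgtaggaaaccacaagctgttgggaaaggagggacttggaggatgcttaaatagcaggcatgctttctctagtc

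The Csf2ra window held 2 GAGGAA matches side by side without overlap, at 14 to 9 and 8 to 3 bases before the start, where 23.3% of 32851 promoter windows of this length held at least 1. It also held 3 TGACG matches, 2 of which overlap each other as the palindrome printed in capitals, and the Cebpb window held 3 more. TGACG occurred in 17.8% of all windows. Cebpa had a TATAAA match at 30 to 25 bases before its start, as 12.4% of windows had somewhere. None of the 4 windows held TTGCNNAA or TGCTGAC, which occurred in 9.56% and 3.81% of windows, and the Lyz2 window held none of the 5 motifs. Base composition set the 4 apart: guanine and cytosine made up 81.6% of the Cebpb window, 66.4% of Cebpa, 64.8% of Csf2ra and 41.6% of Lyz2, against a median of 52.4% over all windows. These are matches of letters only, with no binding measured.

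Csf1r, Lyz2, Cebpa and Cebpb were higher in DKO, Adgre1 was slightly lower, and Cd14, Spi1, Maf and Csf2ra did not pass the test. Passing means an edgeR quasi-likelihood adjusted p under 0.05, with adjustment over all genes tested. By that rule 14.3% of all tested genes passed, 7.42% higher and 6.88% lower in DKO, beside 4 of the 9 genes higher and 1 lower. The FPKM ranges of the groups did not overlap for 6 of the 9 genes, as for 29.6% of all tested genes. The median log2 fold change was 0.18 over the 9 genes and 0.00 over all tested genes. The 9 genes and the lists below were chosen with earlier results of these data known, so such comparisons are a description. The counts for those lists are to be read beside the same shares over all tested genes. In bulk RNA, a change in the number of cells of a type and a change in RNA per cell cannot be told apart.

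**Figure D1:**
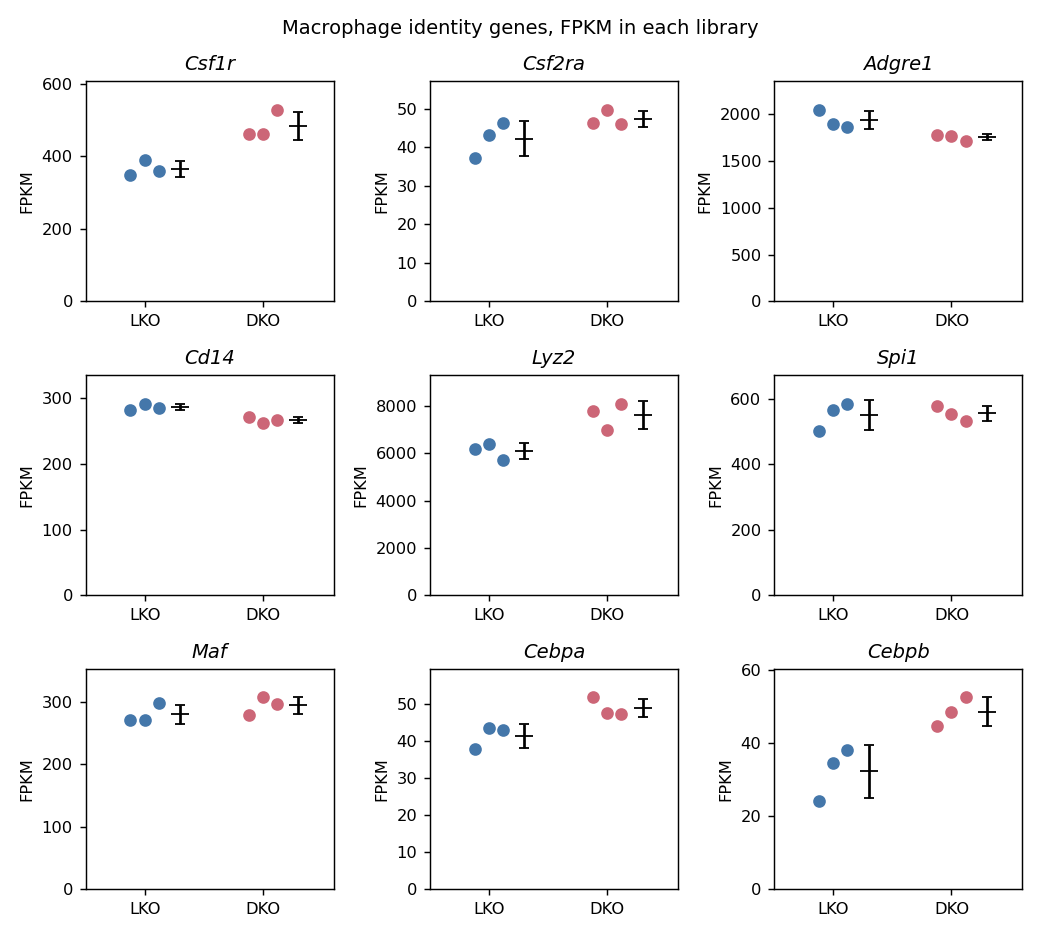
FPKM (y axis, from 0) of each of the 9 genes in the 3 LKO and 3 DKO libraries (points, replicates 1 to 3 from left to right), with the group mean and SD as black bars. The groups are separate for Csf1r, Adgre1, Cd14, Lyz2, Cebpa and Cebpb, and they overlap for Csf2ra, Spi1 and Maf.

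Csf1r, the receptor for CSF1 and IL-34, stood at 348, 389 and 359 FPKM in the LKO libraries and at 462, 461 and 529 in the DKO libraries. Every DKO library was above every LKO library. The means were 365 ± 21.4 and 484 ± 39.0 FPKM (SD, n = 3 each), a 1.33-fold difference with a log2 fold change of 0.42 and a standard error of 0.05 (edgeR adjusted p = 5.70e-06). Csf1r passed under all 17 alternative settings tried, with log2 fold changes between 0.34 and 0.46.

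Its ligand gene Csf1 was also higher in DKO, at a far lower level. The LKO libraries had 1.93, 2.85 and 2.80 FPKM of Csf1, and the DKO libraries 4.74, 5.08 and 3.74, without overlap. The log2 fold change was 0.82 ± 0.13 (SE, edgeR adjusted p = 1.57e-04). Fibroblasts and other stromal cells also make CSF1, and a list of 13 stromal and fibroblast markers summed to 48.9, 52.8 and 55.6 FPKM in the LKO libraries and 89.5, 104 and 77.8 in the DKO libraries. Of its 10 tested markers, 7 rose and none fell. Col1a1 went from 9.41 ± 1.26 to 18.6 ± 2.53 FPKM (log2 fold change 0.99, edgeR adjusted p = 4.34e-08). Col1a2 went from 10.7 ± 0.505 to 21.3 ± 3.13 FPKM (1.0, edgeR adjusted p = 7.92e-09). Of the 13, 5 stayed below 1 FPKM (Col3a1, Lum, Pdgfra, Pdgfrb and Thy1), and Col3a1 and Pdgfrb were among those that rose. The part of stromal cells in the Csf1 result was not tested. Il34, the second ligand, was at most 0.11 FPKM in any library and was not tested.

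Across 19 genes of the CSF1 receptor and its signalling, 18 were tested, 4 rose, 0 fell and 14 did not pass (median log2 fold change 0.03). Besides Csf1r and Csf1, the genes that rose were Dok1 and Dok2, adaptor proteins that restrain tyrosine kinase signalling. Dok1 went from 41.2 ± 1.17 to 53.7 ± 2.76 FPKM (log2 fold change 0.39, edgeR adjusted p = 2.70e-05). Dok2 overlapped between groups, with a log2 fold change of 0.22 (edgeR adjusted p = 0.0391), and its call was lost in 14 of 17 alternatives. Tyrobp, the DAP12 adaptor that associates with many myeloid receptors, was abundant in both groups at 1046 ± 25.9 and 1081 ± 61.0 FPKM and did not pass (edgeR adjusted p = 0.46).

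Csf2ra, the ligand-binding chain of the GM-CSF receptor, stood at 37.2, 43.3 and 46.2 FPKM in LKO and at 46.4, 49.8 and 46.2 in DKO. The groups overlapped, since the highest LKO library lay at the level of the lowest DKO library. The log2 fold change was 0.18 ± 0.07 (SE, edgeR adjusted p = 0.0809). It passed in 1 alternative, without LKO 3, with a log2 fold change of 0.24 (edgeR adjusted p = 0.0264).

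The β chains did pass, and so did the α chain of the IL-3 receptor. Csf2rb, the β chain shared by the GM-CSF, IL-3 and IL-5 receptors, went from 26.8 ± 1.62 to 30.6 ± 2.43 FPKM (log2 fold change 0.20, edgeR adjusted p = 0.0241). Csf2rb2, the mouse β chain for IL-3, went from 8.53 ± 0.857 to 10.3 ± 0.747 FPKM (0.26, edgeR adjusted p = 0.021), and Il3ra, the IL-3 receptor α chain, from 17.8 ± 2.00 to 22.2 ± 1.56 (0.33, edgeR adjusted p = 0.00956). Their calls were lost in 7, 9 and 6 of 17 alternatives. Csf2rb and Csf2rb2 are close copies, and how their reads were divided is not given in the sources used here. Of the 14 genes in the GM-CSF and related receptor list, 10 were tested, 3 rose and 0 fell (median log2 fold change 0.15). The kinase Jak2 and the transducers Stat5a and Stat5b did not pass, and the ligand genes Csf2, Il3 and Il5 were listed in no library.

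Adgre1 encodes F4/80, an adhesion G protein-coupled receptor used to stain mouse macrophages. It had 2048, 1899 and 1869 FPKM in LKO and 1778, 1768 and 1718 in DKO. All DKO libraries were below all LKO libraries, but the step was small: the log2 fold change was −0.13 ± 0.04 (SE), a ratio of 0.912 (edgeR adjusted p = 0.0182). The call was lost in 7 of 17 alternatives. Those were the 5 limma fits on FPKM, with adjusted p between 0.0795 and 0.25, and the edgeR fits without DKO 2 (adjusted p = 0.0536) and without DKO 3 (adjusted p = 0.0968).

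In the adhesion receptor list of 13 genes, 10 were tested, 1 rose and 3 fell (median log2 fold change −0.10). Adgrg6 fell from 31.1 ± 1.25 to 26.6 ± 0.584 FPKM (log2 fold change −0.22, edgeR adjusted p = 0.00242), a call that held in all 17 alternatives. Adgre5 (CD97) fell from 44.1 ± 3.56 to 38.1 ± 2.55 FPKM with overlapping groups (−0.21, edgeR adjusted p = 0.0241, lost in 9 of 17). Adgra3, near 1 FPKM, rose from 0.673 ± 0.0971 to 1.02 ± 0.168 (0.60, edgeR adjusted p = 0.0404, lost in 7 of 13). Adgre4 stood at 18.7 ± 1.82 and 17.6 ± 1.19 FPKM and did not pass.

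Cd14, the co-receptor that hands lipopolysaccharide and some modified lipids to TLR4, had 282, 292 and 286 FPKM in LKO and 271, 263 and 266 in DKO. It was the steadiest of the 9 genes, with a coefficient of variation of 1.77% in LKO and 1.58% in DKO. The groups did not overlap, but the log2 fold change of −0.09 ± 0.04 (SE), did not pass (edgeR adjusted p = 0.144), nor did it in any alternative. The receptor Tlr4 was at 13 ± 0.74 and 13.6 ± 0.414 FPKM and its partner Ly96 (MD-2) at 27.0 ± 1.08 and 30.7 ± 4.17, and neither passed.

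The related pair Cd180 and Ly86 fell instead. CD180 and the Ly86 product MD-1 form a complex that resembles TLR4 with MD-2. Ly86 had 368, 370 and 368 FPKM in LKO and 226, 214 and 225 in DKO, a log2 fold change of −0.72 ± 0.04 (SE, edgeR adjusted p = 8.93e-11). Cd180 fell from 185 ± 7.21 to 158 ± 0.860 FPKM (−0.21, edgeR adjusted p = 0.00119). Tirap, an adaptor that bridges TLR4 to MyD88, rose from 18.8 ± 0.450 to 22.8 ± 1.03 FPKM (0.29, edgeR adjusted p = 4.90e-04). Over the whole list of 14 genes, all tested, 1 rose, 2 fell and 11 did not pass (median log2 fold change 0.03). CD180 and MD-1 are also found on B cells, whose 8 markers summed to 103 to 115 FPKM in LKO and 78.6 to 86.5 in DKO. All 5 tested B cell markers fell. Their part in the Cd180 and Ly86 results, and in that of Spib below, was not tested.

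Lyz2, the macrophage form of lysozyme, was the most abundant of the 9 genes and the 5th most abundant gene in each group by mean FPKM. Its levels were 6199, 6386 and 5731 FPKM in LKO and 7775, 6973 and 8101 in DKO, and its share of all counts lay between 0.595% and 0.841%. The groups did not overlap, and the log2 fold change was 0.33 ± 0.05 (SE), or 1.26-fold (edgeR adjusted p = 4.68e-05). After quantile normalization of the FPKM values, which gives genes of equal rank the same value, the difference turned to −0.04 (limma adjusted p = 0.509). Without a filter on low values it was 0.32 and did not pass (limma adjusted p = 0.166).

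Lyz1, the neighbouring lysozyme gene with nearly the same sequence, rose alongside from 185 ± 12.6 to 228 ± 12.2 FPKM (log2 fold change 0.31, edgeR adjusted p = 2.67e-04). Counts of Lyz2 were fractional, so reads may have been shared out between the lysozyme genes. The FPKM of Lyz1, Lyz2 and Lyzl4 summed to 5902 to 6579 in LKO and 7188 to 8340 in DKO. The effect of such sharing on the Lyz2 result was not tested.

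Spi1, which encodes PU.1, stood at 501, 566 and 586 FPKM in LKO and at 580, 555 and 534 in DKO. The DKO values lay within the LKO range. The log2 fold change was 0.02 ± 0.05 (SE, edgeR adjusted p = 0.828), and its sign turned without LKO 1 (−0.04) and without DKO 1 (−0.01).

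Relatives and partner factors of PU.1 moved in both directions. Of 20 listed genes 18 were tested, 4 rose, 4 fell and 10 did not pass (median log2 fold change −0.01). Spib, which encodes the closely related ETS factor Spi-B known from B cells and plasmacytoid dendritic cells, had 9.94, 9.91 and 10.1 FPKM in LKO and 5.84, 6.19 and 5.65 in DKO (log2 fold change −0.75, edgeR adjusted p = 5.08e-07). Ets2 fell from 44.3 ± 0.940 to 29.1 ± 0.992 FPKM (−0.60, edgeR adjusted p = 1.41e-08) and Ets1 from 10.5 ± 0.250 to 8.11 ± 0.585 (−0.37, edgeR adjusted p = 3.57e-04). These 3 ETS factors passed in all 17 alternatives. Myb, a factor of dividing precursors, fell from 0.807 ± 0.168 to 0.397 ± 0.185 FPKM (−1.01, edgeR adjusted p = 0.0241, lost in 5 of 13).

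Spic, the third Spi gene, known from red pulp macrophages of the spleen, rose from 19.3 ± 1.40 to 23.5 ± 0.631 FPKM (log2 fold change 0.30, edgeR adjusted p = 0.00917, lost in 3 of 17). Irf8, which pairs with PU.1 on composite sites, rose from 62.6 ± 2.64 to 70.2 ± 3.32 FPKM (0.17, edgeR adjusted p = 0.0213, lost in 9). The early growth response genes Egr1 (0.33, edgeR adjusted p = 0.0409) and Egr2 (0.69, edgeR adjusted p = 0.0439) rose, with group means of 6.16 FPKM or less, and each call was lost in 14 of 17 alternatives. Runx1 and Fli1, which act with PU.1 in blood cell development, did not pass, at log2 fold changes of −0.06 and 0.07.

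Cebpb had the largest difference of the 9 genes in the edgeR fit. This factor is induced as myeloid cells mature and in inflammatory responses, and its levels were 24.2, 34.4 and 38.2 FPKM in LKO and 44.7, 48.5 and 52.5 in DKO. The groups did not overlap, but LKO 1 lay well below the other LKO libraries and the coefficient of variation in LKO was 22.5%. The log2 fold change was 0.60 ± 0.10 (SE), or 1.52-fold (edgeR adjusted p = 2.44e-04), and without LKO 1 it was 0.43 (adjusted p = 1.40e-04).

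Cebpa, needed for the step to granulocyte and monocyte precursors, had 37.8, 43.5 and 43.1 FPKM in LKO and 51.9, 47.7 and 47.4 in DKO. Here too every DKO library was higher. The log2 fold change was 0.25 ± 0.06 (SE), or 1.19-fold (edgeR adjusted p = 0.00452). Limma called neither factor without a filter on low values (adjusted p = 0.105 for Cebpb and 0.107 for Cebpa), and it did not call Cebpa after quantile normalization (adjusted p = 0.0531).

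The other C/EBP genes did not pass. Cebpd, the most abundant of the family, had 76.2, 86.8 and 97.8 FPKM in LKO and 94.0, 93.6 and 92.0 in DKO (log2 fold change 0.11, edgeR adjusted p = 0.276). Cebpg stood at 8.24 ± 0.275 and 8.96 ± 0.414 FPKM (0.13, edgeR adjusted p = 0.196) and Ddit3 at 18 ± 1.5 and 17 ± 1.4. Cebpe, the granulocyte member, was below 1 FPKM in every library and was not tested. The family of 6 thus had 5 tested genes, 2 rises and 0 falls (median log2 fold change 0.13).

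Maf, which encodes c-Maf, had 271, 272 and 298 FPKM in LKO and 280, 307 and 297 in DKO. The groups overlapped, and the log2 fold change of 0.09 ± 0.04 (SE) did not pass (edgeR adjusted p = 0.236). The small Maf genes Mafg and Mafk and the partner genes Bach1 and Bach2 did not pass.

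**Figure D2:**
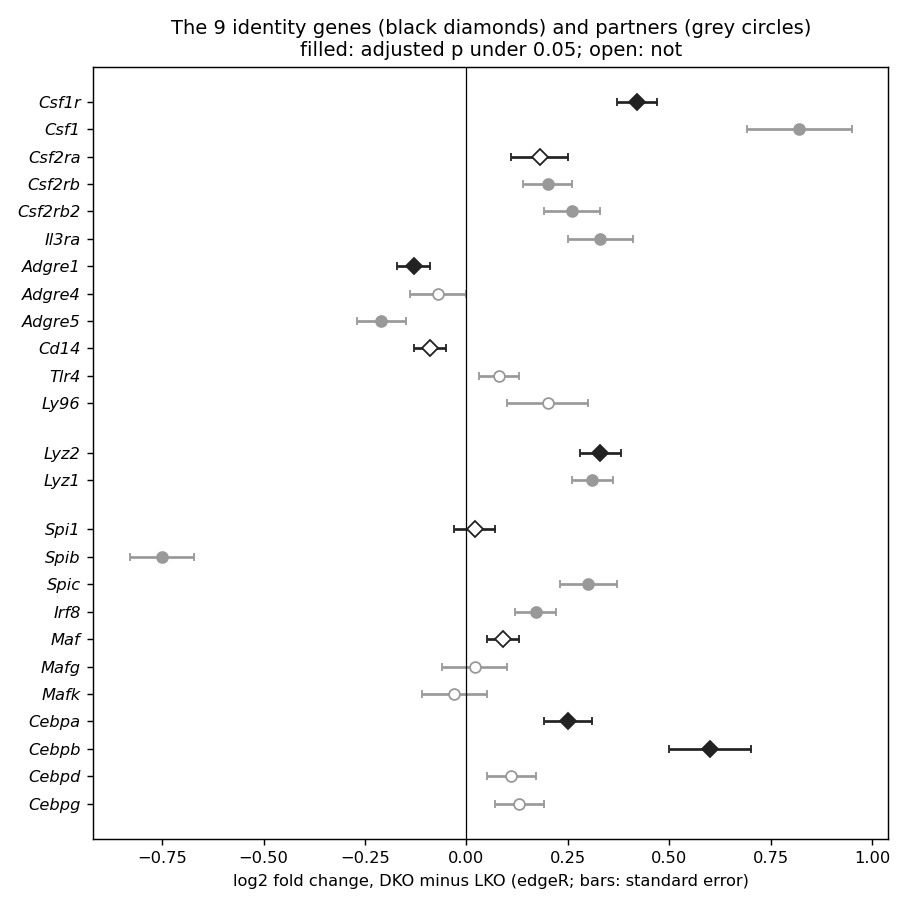
Log2 fold change of DKO over LKO (x axis, edgeR, bars are standard errors) for the 9 genes (black diamonds) and for ligands, receptor chains and family relatives (grey circles), with filled symbols for an adjusted p under 0.05. Csf1, at 0.82, lies farthest to the right and Spib, at −0.75, farthest to the left, with Cebpb at 0.60 the farthest of the 9 genes.

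Of 16 genes known to carry PU.1 sites, 4 of which are among the 9, all were tested, 5 rose, 1 fell and 10 did not pass (median log2 fold change 0.06). Over all tested genes 14.3% passed. Besides Csf1r, those that rose were the Fc receptor genes Fcgr3 (158 to 176 FPKM in LKO and 224 to 276 in DKO, log2 fold change 0.59) and Fcgr1 (53.3 ± 3.41 to 75.8 ± 6.37, 0.52), the scavenger receptor gene Msr1 (15.9 ± 1.54 to 22.8 ± 2.76, 0.48) and the protease gene Ctss (1101 ± 32.1 to 1286 ± 33.1, 0.24). Their edgeR adjusted p values were 8.02e-07, 1.97e-06, 1.21e-04 and 1.64e-04, and each passed in all 17 alternatives. The integrin genes Itgam (log2 fold change −0.06) and Itgb2 (−0.03), Fcer1g (0.04) and Btk (−0.06) did not pass.

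Of 8 granule and receptor genes that C/EBP factors control in granulocytes, all tested, 5 fell, 0 rose and 3 did not pass (median log2 fold change −0.52). Among all tested genes 6.88% fell and 7.42% rose. Ngp fell from 121 ± 5.60 to 78.7 ± 7.53 FPKM (log2 fold change −0.61, edgeR adjusted p = 2.34e-07), Lcn2 from 32.9 ± 1.86 to 21.1 ± 1.05 (−0.63) and Ltf from 23.2 ± 0.769 to 16.6 ± 0.758 (−0.48). Camp (−0.57, lost in 9 of 17) and Elane (−0.71, lost in 8 of 17) fell at lower levels. All 5 are also neutrophil markers. The neutrophil list of 17 genes summed to 641 to 698 FPKM in LKO and 427 to 467 in DKO, and 9 of its 15 tested markers fell and 0 rose. Its most abundant markers were S100a9 and S100a8. S100a9 fell from 274 ± 13.7 to 172 ± 13.6 FPKM (edgeR adjusted p = 4.78e-08) and S100a8 from 127 ± 13.6 to 80.0 ± 0.661 (edgeR adjusted p = 1.57e-06). Ly6g and Cebpe were below 1 FPKM in every library and were not tested. The part of neutrophils in the result was not tested.

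Of 5 genes known to be under the control of Maf factors, 4 rose, 0 fell and 1 did not pass (median log2 fold change 0.27). Among all tested genes 7.42% rose and 6.88% fell. The complement genes C1qa (849 ± 56.6 to 1104 ± 62.9 FPKM, log2 fold change 0.39, edgeR adjusted p = 8.09e-06), C1qb (0.27) and C1qc (0.24) were higher in each DKO library than in any LKO library. C1qa passed in all 17 alternatives, C1qc lost its call in 1 and C1qb in 2, with 0.11 for C1qb after quantile normalization (limma adjusted p = 0.331). Cd5l rose with overlapping groups (0.33, lost in 6 of 17 alternatives). Il10 stood at 28.9 ± 1.53 and 25.2 ± 3.27 FPKM and did not pass.

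The wider list of core macrophage genes held 32 genes, of which 30 were tested, 17 rose, 3 fell and 10 did not pass (median log2 fold change 0.23). Without the 4 that are among the 9, the counts were 15 rises and 2 falls of 26, beside 7.42% and 6.88% of all tested genes. Siglec1, a sialic acid receptor, had 56.8, 84.1 and 71.4 FPKM in LKO and 123, 129 and 168 in DKO (log2 fold change 1.0, edgeR adjusted p = 5.05e-07). Trem2, a lipid-sensing receptor, went from 29.2 ± 1.94 to 50.1 ± 4.29 FPKM (0.79, edgeR adjusted p = 1.22e-07), the mannose receptor gene Mrc1 from 105 ± 4.47 to 157 ± 14.9 (0.59, edgeR adjusted p = 9.19e-08), and Mertk, a receptor for dead cells, from 22.8 ± 0.497 to 31.6 ± 1.63 (0.48, edgeR adjusted p = 1.34e-06). Besides Adgre1, the genes that fell were Cx3cr1, the fractalkine receptor gene (6.92 ± 0.627 to 4.74 ± 0.438 FPKM, −0.53, edgeR adjusted p = 2.37e-04), and Cd33 (−0.35, edgeR adjusted p = 0.0456, lost in 13 of 17). Cd68, a lysosomal macrophage marker, stood at 274 ± 25.7 and 290 ± 20.2 FPKM and did not pass.

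The order of levels was alike in both groups at the top. Lyz2 led, followed by Adgre1, Spi1 and Csf1r, and no library of one of these 4 overlapped the next in either group. Below them, Cd14 and Maf overlapped in LKO (287 and 280 FPKM), while in DKO Maf at 295 was above Cd14 at 267 without overlap. A step of 6.63-fold in LKO and 5.45-fold in DKO led down to the lowest 3. In LKO Csf2ra overlapped Cebpa and Cebpa overlapped Cebpb (42.3, 41.5 and 32.2 FPKM), and in DKO Cebpa, Cebpb and Csf2ra stood at 49.0, 48.6 and 47.4 with overlapping neighbours. By mean FPKM over all listed genes, Cebpb moved from rank 2294 to 1568 and Csf1r from 184 to 148, while Adgre1 moved from 17 to 22.

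Ratios of gene pairs were taken within each library. The exact permutation test over libraries, two-sided, cannot go below p = 0.1 with 3 against 3 libraries and so cannot reach 0.05. Csf1r to Adgre1 was 0.170, 0.205 and 0.192 in LKO and 0.260, 0.261 and 0.308 in DKO, without overlap (log2 difference 0.55, exact p = 0.1, adjusted 0.2). Cebpa to Cebpb was 1.32 ± 0.222 in LKO and 1.02 ± 0.132 in DKO (−0.37, exact p = 0.2, adjusted 0.2), and Csf1r to Csf2ra was 8.70 ± 0.831 and 10.2 ± 1.12 (0.23, exact p = 0.2, adjusted 0.2). The groups overlapped in both of these last ratios. Adjustment was over the 4 ratios computed, of which 3 are given.

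**Figure D3:**
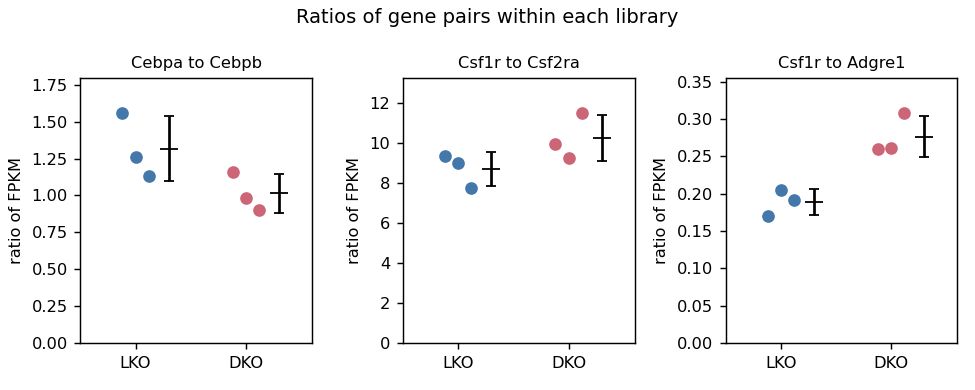
Ratio of FPKM within a library (y axis, from 0) for 3 gene pairs in the 3 LKO and 3 DKO libraries (points), with group means and SD (black bars). Csf1r to Adgre1 lies between 0.170 and 0.205 in LKO and between 0.260 and 0.308 in DKO, while the groups overlap for Cebpa to Cebpb and for Csf1r to Csf2ra.

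The genes whose log2 CPM followed each of the 9 most closely over the 6 libraries were found among 8318 candidates with a mean CPM of at least 10. With 6 libraries and that many candidates, high correlations arise readily, and they are given as a description. For Csf1r they were Pgm2l1 (Pearson r = 0.9987) and Fcgr1 (0.9975), and for Lyz2 they were Pf4 (0.9971) and Msr1 (0.9969). Cebpa was followed by Shc1 (0.9962), Cebpb by Card19 (0.9966) and Arhgef2 (0.9949), and Csf2ra by Ttyh3 (0.9967) and Zfp598 (0.9965). The nearest to Adgre1 were Nasp (0.9997) and Btg1 (0.9958), and to Cd14 Ptp4a3 (0.9964) and Rasal3 (0.9879). Spi1 was followed by Ppp2r3d (0.9994) and Sertad3 (0.9845), and Maf by Ywhag (0.9970) and Zfp219 (0.9754).

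A gene can also differ between knockout lines through variants linked to its own locus, so the 30 nearest tested genes of each were counted. Around Csf1r, 7 of the 30 neighbours differed by at least 1.5-fold, against 5.33% of all tested genes, and 9 passed the test. Those that did both were Pdgfrb, Camk2a, Cd74, 1500015A07Rik, Iigp1 and Gm4951. All lie with Csf1r on chromosome 18, and Pdgfrb is also among the stromal markers that rose. Around the other 8 genes between 0 and 3 neighbours differed by that much. A linked variant need not change the neighbours of a gene, so the count cannot decide for any of the 9. For Csf1r and the other 8, loss of ALDH2 and linked variants cannot be told apart with these samples.

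Macrophage markers were abundant in every library, and the core macrophage list summed to 20982 to 21910 FPKM in LKO and 23349 to 25051 in DKO. Monocyte markers summed to 142 to 152 and 149 to 162 FPKM, with 3 rises and 2 falls of 9 tested. Most of the B cell sum given above was Cd79b, Ebf1 and Vpreb3 were below 1 FPKM, and Ighm was listed in no library. Markers of dividing cells summed to 141 to 146 and 113 to 126 FPKM, with 6 falls and 0 rises of 8. Progenitor markers summed to 3.42 to 3.56 and 2.11 to 2.49 FPKM, and mast cell markers to 0.68 to 1.06 and 0.07 to 0.54. Dendritic cell markers summed to 240 to 285 and 321 to 358 FPKM, mostly from Bst2, with 8 of the 11 below 1 FPKM. Endothelial markers summed to 41.8 to 45.8 and 38.9 to 43.2 FPKM, mostly Pecam1. T or NK cell markers summed to 9.50 to 10.3 and 8.41 to 9.47 FPKM, mostly Cd4, with 7 of the 9 below 1 FPKM. Cd4 fell from 7.61 ± 0.195 to 6.35 ± 0.473 FPKM. Cd3d was higher in each DKO library (0.9 ± 0.235 to 1.43 ± 0.276 FPKM) but did not pass. Osteoclast markers summed to 241 to 250 and 205 to 224 FPKM, megakaryocyte markers, mostly Pf4, to 103 to 110 and 119 to 135, and erythroid markers to 1.96 to 2.37 and 2.49 to 2.78. The part of these other cells in the 9 genes' differences was not tested.

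**Figure D4:**
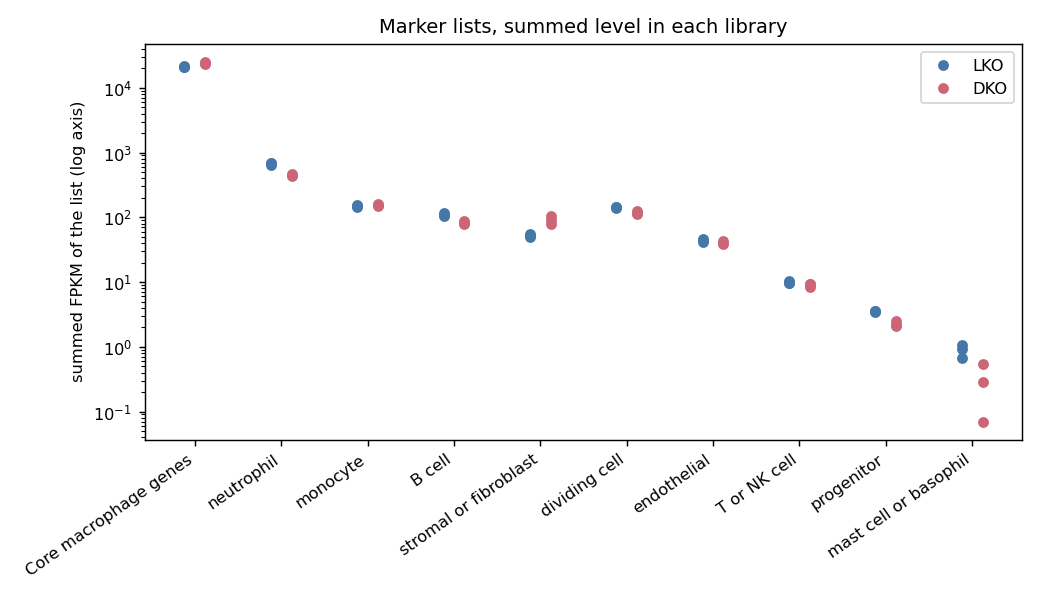
Summed FPKM (y axis, log scale) of marker lists in each LKO and DKO library (points). Core macrophage genes lie between 20982 and 25051, far above the others. Of the lists drawn, the neutrophil, B cell, dividing cell, T or NK cell, progenitor and mast cell lists are lower in all 3 DKO libraries, the core macrophage and stromal lists are higher, and the monocyte and endothelial lists overlap. The T or NK cell list, mostly Cd4, is apart only by 9.50 in LKO against 9.47 in DKO.

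Leaving out LKO 1, the library that stood apart, kept the direction and the call of the 5 genes that passed. The log2 fold changes were then 0.38 for Csf1r, 0.34 for Lyz2, 0.19 for Cebpa, 0.43 for Cebpb and −0.09 for Adgre1, with edgeR adjusted p between 8.85e-06 and 0.0371. Csf2ra was then at 0.09 and did not pass (edgeR adjusted p = 0.337).

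**Figure D5:**
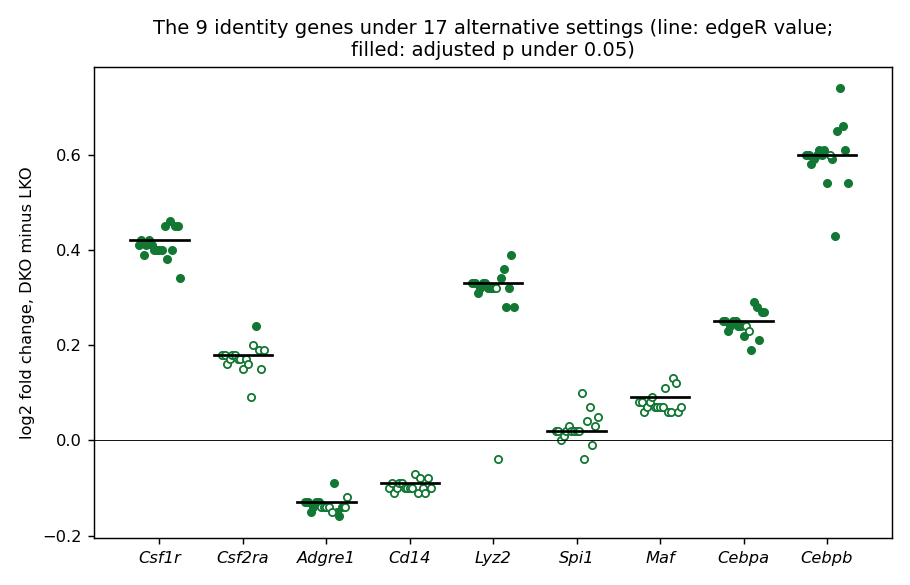
Log2 fold change of DKO over LKO (y axis) of the 9 genes under 17 alternative settings (circles, filled for an adjusted p under 0.05), with the edgeR value as a line. Csf1r stays between 0.34 and 0.46 with every circle filled, Cd14 and Maf have only open circles, and 1 circle of Lyz2 lies below 0.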

How the data were processed

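RNA-seq libraries were grouped by their labels (3 LKO, 3 DKO). Per the file headers, the authors deposited an expected count and an FPKM for each gene. Between 23.2% and 23.6% of the counts were fractional (tolerance 0.005). The submitters' processing notes name Bowtie 0.12.2 and mm8. How reads were counted, and whether by strand, is not given in the sources used here. Genes absent from a file were taken as 0. Symbols came from a RefSeq table of GRCm38 (16832 of 16871 matched), used for names and neighbours.

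Counts were rounded and tested in R 4.3.3 with edgeR 4.0.16 (filterByExpr, TMM, quasi-likelihood test, Benjamini-Hochberg over 11809 genes, threshold 0.05), checked on simulated data. Means ± SD are of FPKM. Alternatives were DESeq2 1.42.0, other scalings, no filter, a replicate block, limma 3.58.1 on log2(FPKM + 1) with an FPKM minimum of 1 in 3 libraries, pseudocounts of 0.1 and 5, no filter or quantile normalization, and each library left out. Ratios used SciPy 1.17.1. Depth was 10760625 to 10987584 counts per library.

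Genes named are the 9, Aldh2, family partners, the list members of smallest p (up to 4, or all where 5 or fewer passed in a direction) and the 2 most correlated genes of each; some genes that the rule takes are left out of the text. A few further marker genes (Cd79b, Bst2, Pf4, Pecam1) and the neighbours of Csf1r were named after their values were seen. So were Cd4, Cd3d, S100a8, S100a9, Col1a1, Col1a2 and the stromal markers below 1 FPKM. The 9 genes and all lists were chosen with earlier results of these data known.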

Additional observations from a re-analysis of the deposited data

How the results depend on the processing

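All 17 alternatives kept the direction of Csf1r, Cebpa, Cebpb, Cd14, Csf2ra, Maf and Adgre1, but not of Spi1 and Lyz2. Genes passing numbered 1689 by edgeR, 1119 by limma with a pseudocount of 0.1, 807 without a filter and 1108 after quantile normalization. Of the 9 genes, 5 passed by edgeR, 1 by limma without a filter (Csf1r) and 2 after quantile normalization (Csf1r and Cebpb). Adgre1 missed the threshold in the limma fits at −0.14 (pseudocounts of 0.1, 1 and 5, and no filter) and −0.15 (quantile). Limma without a filter gave 0.24 for Cebpa, 0.60 for Cebpb and 0.32 for Lyz2, none passing. After quantile normalization Cebpa was 0.23 and Lyz2 turned to −0.04. That scaling gives equal ranks equal values, and Lyz2 was 5th by mean FPKM in both groups, so it cannot decide the direction of Lyz2. The causes of these changes were not tested. With each library left out in turn, between 1175 and 1481 genes passed, 4 to 6 of the 9 among them. Log2 fold changes then ranged from −0.16 to −0.09 for Adgre1, −0.04 to 0.07 for Spi1 and 0.09 to 0.24 for Csf2ra.

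Upper-quartile scaling moved the share of higher calls from 51.9% to 43.6%. Replicate numbers gave no sign of pairing. In their deviations from the group means, same-numbered pairs correlated at 0.0179, −0.0560 and −0.0273, and other pairs between −0.0248 and 0.0525. With 3 libraries per group, these values cannot decide whether the libraries were paired. With the replicate block 1553 genes passed, 5 of the 9 among them. DESeq2 called 1141 genes and 5 of the 9. Depth limits Il34 and Cebpe, which had too few counts to test.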
